A study of Mus musculus with 24 samples.

Results

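The comparison described here set dendritic cells grown from the bone marrow of Arpc4 knockout mice on day 8 of culture against the same kind of culture on day 7. It used 6 of the 24 samples of the series, the KO samples of mice 64, 67 and 68 on each of the 2 days, and every gene with enough counts to be tested. Per the labels the mice carried ARPC4 Flox/Flox alleles and the CD11c-Cre transgene in the +/- state, and the WT mice 63, 65 and 66 carried the same floxed alleles with CD11c-Cre -/-. Donors were males and females of 8 to 10 weeks, and each group of 1 genotype and 1 day held 3 mice. CD11c-Cre removes floxed DNA where the CD11c promoter is active, so bone marrow progenitors without CD11c still have the gene, and the cultures were started from bone marrow. Bone marrow was cultured in medium containing GM-CSF and moved to fresh medium on day 4 and again on day 7, and the cells in suspension were collected. The labels do not say whether day 7 cells were taken before or after the move, so a day of culture, the passage and the fresh medium cannot be told apart in this comparison.

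Arpc4 is a subunit of the Arp2/3 complex, which nucleates branched actin filaments under the control of proteins such as WASP and WAVE. Dendritic cells take up antigen, present it on MHC molecules and migrate, and all of these use actin. GM-CSF, the factor that drives these cultures, signals through a receptor whose beta chain activates the kinase JAK2 and the transcription factor STAT5, and also the ERK pathway. STAT5 switches on its own feedback inhibitors Cish, Socs1 and Socs2, and ERK switches on D cyclins and the Sprouty and Spred inhibitors.

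Messenger RNA was sequenced from poly(A)-selected, stranded, paired-end libraries, and the authors deposited counts per gene. The 6 KO samples held 24030705 to 27970417 counts. The share of counts held by the 10 top genes was 17.2% to 20.2% on day 7 and 9.93% to 14.5% on day 8. Within each KO group the samples differed from each other by 13.0 to 76.3 times the sampling noise (chi-square per degree of freedom over genes), so no sample repeats another. Ddx3y, a Y-linked gene, stood at 67.7 CPM in sample 64 of day 7 and at 59.2 CPM in sample 68 of day 8, with Xist at 0.16 and 0.0423 CPM in these samples and Ddx3y near 0 in the other 4. Sample 68 of day 7 had Xist at 563.6 CPM and sample 64 of day 8 at 948 CPM. Numbers 64 and 68 therefore do not carry 1 sex-linked pattern on both days, and samples were not paired by mouse number. The labels give more than 90% CD11c+ cells by flow cytometry, and Itgax, which encodes CD11c, stood at 993, 871 and 952 CPM on day 7 and at 953, 771 and 750.4 CPM on day 8.

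A large part of the transcriptome differed between the days. Of 14535 genes tested with edgeR's quasi-likelihood test, 6110 (42%) passed an adjusted p of 0.05, 3071 (21.1%) higher and 3039 (20.9%) lower on day 8. Below, a gene that passed is called, and it is said to have risen or fallen on day 8 against day 7. Of the called genes, 536 (3.69% of those tested) rose and 998 (6.87%) fell by at least 2-fold, against 740 and 722 with library totals and 491 and 265 with limma-trend on log2(TPM + 1), so the excess of 2-fold falls depends on the scaling. The 3 values of day 8 lay all above those of day 7 for 3342 genes (23%) and all below them for 3425 (23.6%). The balance of directions depends on the scaling, since 68.7% of the calls were higher when counts were scaled by library totals and 75.7% with limma-trend on log2(TPM + 1), against 50.3% here. These scalings moved the median log2 change of all genes from 0.0018 to 0.15 and 0.172, so a change of that size has no fixed direction. Values per sample are counts relative to the total of the sample (CPM, with TMM factors), given in the order of mice 64, 67 and 68. They compare samples for 1 gene, not genes with each other, since they are not divided by gene length. In bulk samples fewer cells of a type and less RNA per cell cannot be told apart.

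Arpc4, the gene that was floxed (ENSMUSG00000079426.13 at chr6:113378115-113390448, forward strand of GRCm38), stood at 155, 170.3 and 182 CPM on day 7 and at 230.3, 231 and 223 CPM on day 8. Every day 8 value lay above every day 7 value, a rise of 1.35-fold (log2 fold change 0.43, SE 0.067, edgeR adjusted p 3.1e-05). In WT the gene rose by nearly the same amount, with a log2 fold change of 0.44. The WT means were 192 ± 5.62 CPM on day 7 and 260.2 ± 12.8 CPM on day 8, against 169 ± 13.7 and 228 ± 4.28 CPM in KO (SD, n = 3 each), so that the KO libraries held 87.9% and 87.7% of the WT level. Every KO value lay below every WT value of its day; KO was not tested against WT within a day. Counts per gene do not show whether the transcript counted in KO samples contained the floxed part. Of the other 8 subunits of the complex, Actr2, Arpc2 and Arpc5 rose (log2 fold changes 0.57, 0.33 and 0.20) and the others were not called. With library totals or with TPM, 7 of the 8 were called as higher. Among 32 regulators of actin nucleation and turnover, 10 rose and 4 fell, against 21.1% and 20.9% of all genes tested, and 17 rose with TPM. Enah, which keeps growing filament ends free of capping proteins, stood at 16.5, 13.6 and 17.4 CPM on day 7 and at 50.8, 74.6 and 41.6 CPM on day 8 (log2 fold change 1.81, SE 0.20, edgeR adjusted p 7.2e-07). Fscn1, the filament bundler of mature dendritic cells, rose with a log2 fold change of 1.12 (0.15 without sample 67 of day 8), and the formin Diaph2 with one of 0.77. Evl, a relative of Enah, and the formin Fmnl3 fell (-1.12 and -1.0). Both main nonmuscle actins rose, Actb by 0.44 and Actg1 by 0.41 on the log2 scale, while Myh10, a nonmuscle myosin II heavy chain, fell by 1.5. Without both samples with high Ddx3y the log2 fold change of Myh10 was -0.81 and not called. Its call also ended when only the 6 samples were fitted. The call ended when a sample in brackets was left out, 1 at a time, or with a setting in brackets, for Arpc5 (64 of day 7, 64 of day 8), Fscn1 (64, 67 and 68 of day 7, 67 of day 8, TPM, replicate block) and Myh10 (64 and 68 of day 7, 64 and 68 of day 8, TPM).

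The 10 largest rises included secreted signals and enzymes. Car4, a membrane-bound carbonic anhydrase (ENSMUSG00000000805.18 at chr11:84957786-84966044, forward strand of GRCm38), stood at 0.599, 1.71 and 0.643 CPM on day 7 and at 122, 92.8 and 96.8 CPM on day 8 (log2 fold change 6.72, SE 0.41, edgeR adjusted p 4.4e-10). Ccn3, a secreted matrix-associated protein, stood at 3.39, 2.96 and 5.01 CPM on day 7 and at 153, 175 and 146 CPM on day 8 (log2 fold change 5.38, SE 0.18, edgeR adjusted p 2.6e-14). Ccl17, a chemokine made by dendritic cells that attracts CCR4-bearing T cells, stood at 2.91, 7.76 and 3.09 CPM on day 7 and at 84.6, 135 and 37.2 CPM on day 8. Each of these genes had its lowest day 8 value several times above its highest day 7 value. The spread between samples was small for Ccn3 and wide for Ccl17, where sample 67 was highest on both days. Id1 and Id3 encode proteins that hold helix-loop-helix transcription factors off DNA. Id1 stood at 1.64, 5.23 and 3.21 CPM on day 7 and at 40.4, 50.2 and 44.7 CPM on day 8 and Id3 at 0.639, 0.943 and 0.557 CPM on day 7 and at 10.8, 13.2 and 13.7 CPM on day 8 (log2 fold changes 3.75 and 4.13). Ccl12, a ligand of the monocyte chemokine receptor CCR2, stood at 1.2, 1.03 and 1.11 CPM on day 7 and at 16.5, 12.2 and 22.7 CPM on day 8. The other rises were Dmpk, Cyp4a12a, Epha2 and Hs3st3b1, with log2 fold changes of 5.84, 5.08, 4.1 and 3.88. Dmpk rested on 7, 2 and 1 counts on day 7, and without sample 64 of day 7 its log2 fold change was 6.91. Cyp4a12a rested on 0, 1 and 4 counts on day 7, its near-identical neighbour Cyp4a12b can share reads with it, and without sample 68 of day 7 its log2 fold change was 6.64. Without sample 67 of day 7 the values were 7.4 for Car4 and 4.86 for Ccl17.

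The 10 largest falls included secreted proteins, a chemokine receptor and several transporters. Best1, a chloride channel, stood at 42.4, 40.5 and 43.1 CPM on day 7 and at 3.86, 3.35 and 3.76 CPM on day 8 (log2 fold change -3.52, SE 0.25, edgeR adjusted p 1.8e-09). Mamdc2 stood at 153, 139.7 and 183 CPM on day 7 and at 16.7, 9.49 and 17.2 CPM on day 8 (log2 fold change -3.46, SE 0.30, edgeR adjusted p 3e-08). Slc36a2, a proton-coupled amino acid transporter, stood at 56.2, 33.8 and 57.4 CPM on day 7 and at 5, 3.15 and 7.1 CPM on day 8. In each of these 3 genes the highest day 8 value lay far below the lowest day 7 value, and the day 7 values of Best1 lay close together. Cd5l, a secreted protein of macrophages, stood at 44.3, 11.6 and 43.3 CPM on day 7 and at 3.71, 1.54 and 6.59 CPM on day 8. Cxcl14, a chemokine, stood at 29.4, 6.94 and 23.4 CPM on day 7 and at 1.99, 0.67 and 3 CPM on day 8. In these 2 genes sample 67 was the lowest on both days, and its day 7 value came nearest to the day 8 values. The fractalkine receptor Cx3cr1 stood at 4.39, 10.5 and 8.83 CPM on day 7 and at 0.882, 0.737 and 0.338 CPM on day 8 (log2 fold change -3.57), and in the annotation its span is shared with Wdr48, Gorasp1, Ttc21a and Csrnp1, none of which was called. Klk1b11, a kallikrein protease with close paralogs that can share its reads, and Slco2b1, an organic anion transporter, had log2 fold changes of -3.14 and -3.05. Lrrc14b had the largest fall (-3.93), and Ccdc127, which overlaps it on the opposite strand with 861% of its counts, had a log2 fold change of -0.30. The strand setting of the counts is not given in the sources used here. On log2(TPM + 1), where low values are compressed, the folds of Dmpk, Cyp4a12a, Id3, Epha2, Lrrc14b, Cx3cr1, Cxcl14 and Slco2b1 were smaller by more than 1.5 times, and each kept its call.

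**Figure D1:**
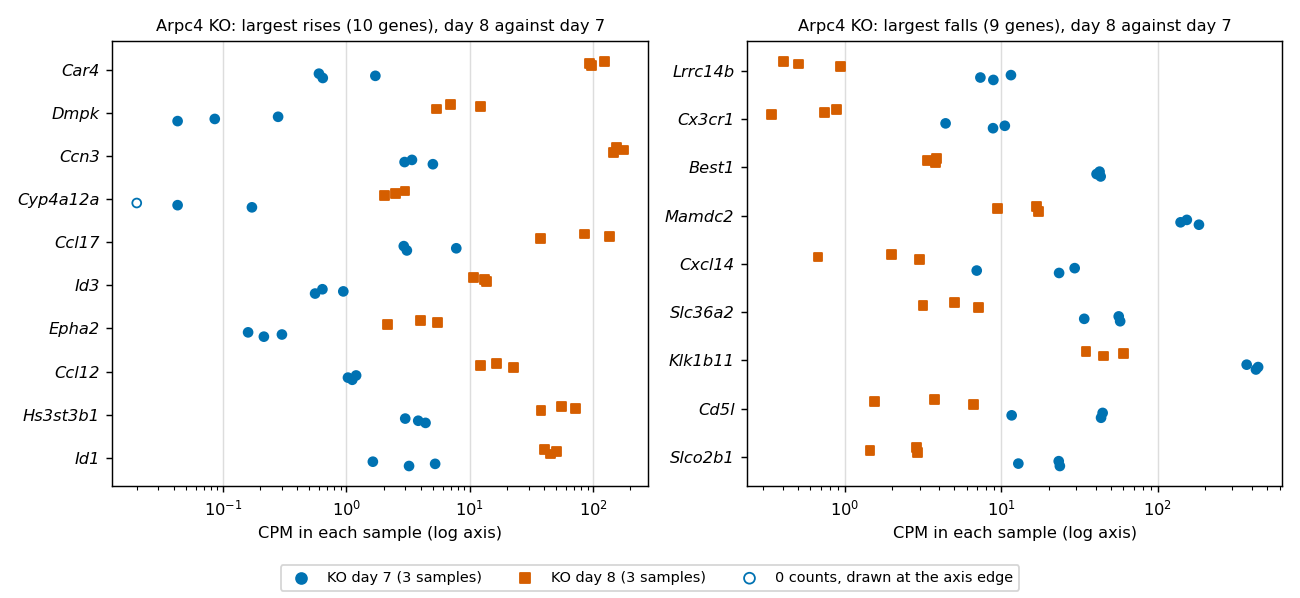
CPM on a log axis of the 10 genes with the largest rise (left) and 9 of the 10 with the largest fall (right) in the 3 KO samples of day 7 (circles) and of day 8 (squares). In each gene drawn the days do not overlap; Car4 goes from 0.599 to 1.71 CPM on day 7 to 92.8 to 122 CPM on day 8.

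The genes were then grouped in 37 lists by pathway or cell function. Members outside the naming rule are examples chosen after their values were seen. In the descriptions that follow, the shares to hold a list against are 21.1% rising and 20.9% falling among all genes tested, and a median log2 change of 0.0018. The ribosome biogenesis list stood highest in its share of rises (29 of 30), followed by cytosolic heat shock genes (11 of 12) and endoplasmic reticulum chaperones (18 of 25). The LXR targets (9 of 14) and the lysosome genes (21 of 35) stood highest in their shares of falls. Where the call of a named member ended without 1 of the 6 samples, with library totals, with TPM or with the mouse number as a replicate block, this closes the paragraph, with each sample in brackets left out 1 at a time. On log2(TPM + 1), which compresses low values, the log2 fold changes of Eda2r, Etv4, Fosl1, Lepr, Myh10, Pacsin1, Tpsb2, Cxcr3 and Apoc1 were 0.84, 0.22, 0.88, 0.72, -0.19, 0.36, -0.65, -0.80 and -2.14, each smaller in fold by more than 1.5 times.

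**Figure D2:**
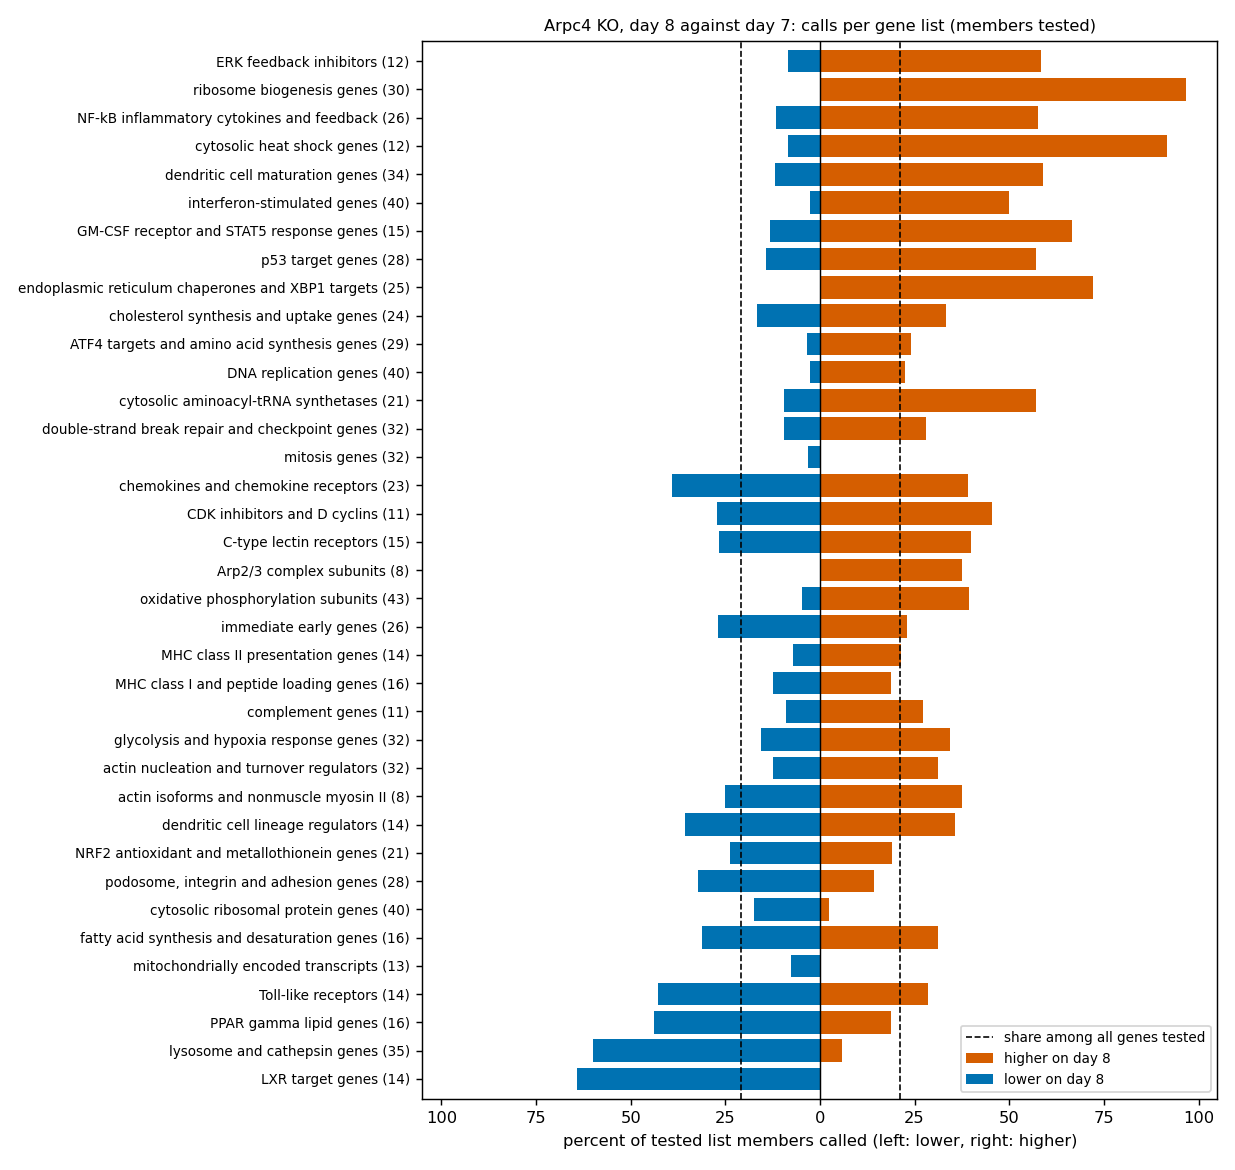
Percent of the tested members of each of 37 gene lists called lower (left) or higher (right) on day 8 in KO, with the number tested in brackets and lists ordered by median log2 change. Dashed lines mark the shares among all genes, 20.9% lower and 21.1% higher; ribosome biogenesis reaches furthest to the right and the LXR targets furthest to the left.

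GM-CSF signalling was represented by 15 receptor and STAT5 response genes, of which 10 rose and 2 fell (4 with upper quartile factors or a filter on a mean of 50 counts), with a median log2 change of 0.511. The feedback inhibitor Cish (ENSMUSG00000032578.7 at chr9:107296026-107302784, forward strand of GRCm38) stood at 17.2, 24.9 and 18.5 CPM on day 7 and at 211, 281 and 223 CPM on day 8 (log2 fold change 3.56, SE 0.16, edgeR adjusted p 7.5e-12). Socs1, which blocks JAK kinases, stood at 6.71, 8.36 and 7.67 CPM on day 7 and at 76.3, 87.1 and 80.5 CPM on day 8 (log2 fold change 3.42, SE 0.11, edgeR adjusted p 2.6e-14). Socs2 stood at 23.1, 17.9 and 22.2 CPM on day 7 and at 73.2, 91.9 and 55.4 CPM on day 8 (log2 fold change 1.8, SE 0.16, edgeR adjusted p 3.3e-08). For each of the 3 inhibitors every day 8 value lay above every day 7 value, and among them Socs1 varied least between samples of a day. The kinase gene Pim1 and the survival genes Bcl2 and Bcl2l1 rose less (log2 fold changes 0.77, 0.79 and 0.50). Among the signalling parts, the shared beta chains Csf2rb and Csf2rb2 and Stat5a rose (0.76, 0.48 and 0.51), Stat5b and the IL-3 receptor alpha chain Il3ra fell (-0.46 and -1.16), and the GM-CSF receptor alpha chain Csf2ra had a log2 fold change of -0.25 and was not called. Calls that ended in 1 or more of these fits were those of Bcl2l1 (67 of day 7, 68 of day 8), Stat5a (67 of day 8) and Stat5b (TPM).

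STAT5 binds the letters TTCNNNGAA, and the promoter of Cish is shown because Cish had the largest change of this list and holds that motif 2 times. The sequence is RefSeq's on GRCm38.p6 (chr9:107296509-107296688, forward strand), 5′ to 3′, from 150 bases before to 30 bases after the start site, with the motif in capitals.
Cish: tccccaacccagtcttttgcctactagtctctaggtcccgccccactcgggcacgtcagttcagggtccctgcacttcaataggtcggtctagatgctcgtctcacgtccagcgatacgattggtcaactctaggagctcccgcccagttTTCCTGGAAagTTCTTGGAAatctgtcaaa
The matches begin at bases 1 and 12 from the start site. In windows of 250 bases before to 50 after a start site, the motif, which reads the same on both strands, was found in 2 of 16 promoters of 11 genes of the list (12.5%; Cish and Csf2rb2) and in 8.3% of 32851 promoters. The motifs here and below were chosen after the values were seen, and a match is a description of the letters only.

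Genes under ERK control moved beside the STAT5 genes. Of 12 ERK feedback inhibitors and targets, 7 rose and 1 fell (median 0.946). Etv4 and Etv5, transcription factors switched on by ERK, rose by 2.12 (3.02 without sample 67 of day 7) and 1.32 on the log2 scale, and Spry1, Spred1 and Spred2, inhibitors of the pathway, by 1.58, 1.09 and 0.80. The 1 fall was Spred3, of the same family, at -1.0, and it kept its call in every fit. Phlda1 stood at 9.1, 7.84 and 7.84 CPM on day 7 and at 26.8, 32.2 and 34 CPM on day 8 (log2 fold change 1.91, SE 0.14, edgeR adjusted p 2.3e-09). Dusp4, Dusp5 and Dusp6, phosphatases of the same pathway, had log2 fold changes of -0.04, -0.33 and -0.07 and were not called. The D cyclins drive entry into the cell cycle, and all 3 rose. Ccnd2 stood at 39.6, 38.6 and 31.2 CPM on day 7 and at 217, 288 and 168 CPM on day 8 (log2 fold change 2.62, SE 0.17, edgeR adjusted p 8.1e-10). Ccnd1 stood at 61.6, 56.3 and 57 CPM on day 7 and at 216, 249.8 and 191 CPM on day 8 (log2 fold change 1.91, SE 0.16, edgeR adjusted p 2e-08). Ccnd3 rose by 0.68 on the log2 scale. For both Ccnd1 and Ccnd2 sample 67 was the highest of day 8 and sample 68 the lowest. The CDK inhibitors split, as Cdkn1a and Cdkn2b rose (1.5 and 1.23) while Cdkn1c, Cdkn2d and Cdkn1b fell (-2.14, -0.97 and -0.63). Such fits ended the calls of Etv4 (64 and 68 of day 7, 64 of day 8, TPM), Ccnd3 (64 and 68 of day 7, 67 of day 8) and Cdkn1b (68 of day 7, 64 and 68 of day 8, library totals, TPM).

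Immediate early genes, which respond to stimulation or to handling of cells within minutes, held 6 rises and 7 falls among 26, shares near those of all genes tested. The median of 0.137 was 0.0562 without sample 64 of day 7, 0.236, 0.0048 and 0.0399 without samples 64, 67 and 68 of day 8, and -0.0491 without both samples with high Ddx3y. Library totals and TPM each gave 9 rises and 5 falls. Myc and Fosl1 rose by 1.68 and 1.7 on the log2 scale. Nr4a1, a nuclear receptor, stood at 8.94, 13.1 and 9.81 CPM on day 7 and at 1.73, 3.69 and 2.07 CPM on day 8 (log2 fold change -2.08, SE 0.31, edgeR adjusted p 2.4e-05). Fosb, an AP-1 subunit, stood at 28.1, 36.2 and 36.6 CPM on day 7 and at 12.8, 10.2 and 8.16 CPM on day 8 (log2 fold change -1.7, SE 0.40, edgeR adjusted p 0.0021). Fos, Atf3 and Dusp1 fell as well (-0.73, -1.17 and -0.76), and Jun, Junb and Egr1 were not called (-0.11, 0.08 and 0.16). Whether day 7 and day 8 cells were handled for the same time is not given in the sources used here. The call ended in such a fit for Fos (67 and 68 of day 7, 64 and 67 of day 8, library totals, TPM).

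Ribosome biogenesis, the making of ribosomes in the nucleolus, showed the most uniform change of the 37 lists. Of 30 genes 29 rose, none fell, and Polr1c was not called (log2 fold change 0.18); the median was 0.886. Heatr1, needed for processing of ribosomal RNA, stood at 61.3, 59.5 and 49 CPM on day 7 and at 163, 178 and 139.7 CPM on day 8 (log2 fold change 1.5, SE 0.10, edgeR adjusted p 8.1e-10). Nop2, a ribosomal RNA methyltransferase, stood at 30.1, 24.7 and 26.7 CPM on day 7 and at 55.1, 61 and 63.2 CPM on day 8 (log2 fold change 1.14, SE 0.10, edgeR adjusted p 4.9e-08). Ncl, the abundant nucleolar protein nucleolin, stood at 276, 266 and 272 CPM on day 7 and at 453, 478 and 408 CPM on day 8 (log2 fold change 0.72, SE 0.088, edgeR adjusted p 2e-06). In each of the 3 genes all day 8 values lay above all day 7 values. Dkc1, which modifies ribosomal RNA, rose by 1.71, while Mpp1, overlapping it on the opposite strand with more counts, fell by 0.33. Lgals8 overlaps Heatr1 in the same way and was not called. Of 40 ribosomal proteins, 1 rose (Rps2, 0.66) and 7 fell, with a median of -0.075. Rps27, the largest fall, stood at 194, 218 and 242 CPM on day 7 and at 133, 148 and 147 CPM on day 8 (log2 fold change -0.61, SE 0.10, edgeR adjusted p 8e-05). The direction of that median depends on the scaling, as it was 0.073 with library totals and 0.153 with TPM, with 4 and 7 genes higher and 1 lower in each. The count of falls was 4 without sample 68 of day 7 or sample 64 of day 8, and 11 with the mouse number as a replicate block, with upper quartile factors or with a filter on a mean of 50 counts. Rps14 (log2 fold change -0.45) was not called under either of these scalings, and Ndst1, which overlaps it on the opposite strand, fell as well (-0.50).

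Genes for the folding of proteins rose as well. Of 25 endoplasmic reticulum chaperones and XBP1 targets, 18 rose and none fell (median 0.417). Pdia4, a disulfide isomerase, stood at 147, 126 and 135 CPM on day 7 and at 555, 472 and 676 CPM on day 8 (log2 fold change 2.06, SE 0.17, edgeR adjusted p 1.6e-08). Creld2, a stress-induced disulfide isomerase, stood at 31.9, 28.4 and 31.7 CPM on day 7 and at 52.3, 61.7 and 54.3 CPM on day 8 (log2 fold change 0.87, SE 0.095, edgeR adjusted p 4.7e-07). Hspa5, the main chaperone of the compartment, stood at 798, 700.1 and 800.3 CPM on day 7 and at 1092, 995 and 1119 CPM on day 8 (log2 fold change 0.48, SE 0.089, edgeR adjusted p 0.00023). Pdia4 rose the furthest, and the other rises of the list ran from 0.17 for Dnajc3 to 0.87 for Creld2. Xbp1, the transcription factor of the list's name, rose by 0.61. Of 12 cytosolic heat shock genes 11 rose and Bag3 fell (-0.40), with a median of 0.554. When 1 KO sample was left out, 8 to 11 rose. Hspd1, a mitochondrial matrix chaperone that was kept in this list, stood at 157, 126 and 145 CPM on day 7 and at 293, 287 and 268 CPM on day 8 (log2 fold change 0.98, SE 0.084, edgeR adjusted p 2.3e-08). Its neighbour Hspe1, whose annotation overlaps it, is also a mitochondrial member of this list and rose as well (0.44). Hsp90aa1 stood at 221, 191 and 199 CPM on day 7 and at 365, 361 and 289 CPM on day 8 (log2 fold change 0.73, SE 0.091, edgeR adjusted p 2.3e-06). The near-identical copies Hspa1a and Hspa1b can share reads and had the same log2 fold change of 0.93. The call ended in such a fit for Dnajc3 (64 and 67 of day 7, 64 and 67 of day 8, replicate block), Bag3 (64 and 68 of day 7, 64 and 67 of day 8, TPM), Hspa1a (64 and 67 of day 7, 64 and 68 of day 8) and Hspa1b (64 of day 7).

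Promoters of endoplasmic reticulum chaperones carry a stress response element, CCAAT, 9 bases of any kind and CCACG. It was searched on both strands and was found in 9 of 22 promoters of 22 genes of the list (40.9%), against 39 of 32851 promoters (0.119%). The 9 genes were Calr, Canx, Creld2, Derl3, Dnajc3, Hsp90b1, Hspa5, Pdia6 and Syvn1, of which Derl3 and Syvn1 were not called. Hspa5 and Creld2 are shown because they carry the element in opposite orientations, the former for its role as main chaperone and the latter for the second largest rise of the list; Pdia4, which rose furthest, holds no match in its window. The RefSeq sequences on GRCm38.p6 cover the 150 bases before the start site (chr2:34771940-34772089, forward strand for Hspa5 and chr15:88819496-88819645, forward strand for Creld2), 5′ to 3′, with the element in capitals. In Creld2 it reads on the reverse strand.
Hspa5: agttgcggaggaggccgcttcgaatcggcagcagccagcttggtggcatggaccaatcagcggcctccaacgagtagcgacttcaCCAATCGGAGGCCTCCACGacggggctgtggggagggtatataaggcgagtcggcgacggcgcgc
Creld2: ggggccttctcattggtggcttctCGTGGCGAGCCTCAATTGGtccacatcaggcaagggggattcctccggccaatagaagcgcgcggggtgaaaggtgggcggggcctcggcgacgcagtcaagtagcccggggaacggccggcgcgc
The element begins 65 bases before the start site in Hspa5 and 126 bases before it in Creld2.

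The nuclear-encoded lists of energy metabolism held more rises than falls. Of 32 glycolysis and hypoxia response genes 11 rose and 5 fell, and 18 and 3 with TPM. The rises were mostly enzymes of glycolysis, such as Eno1, which stood at 603, 625 and 652 CPM on day 7 and at 1135, 1119 and 1251 CPM on day 8 (log2 fold change 0.90, SE 0.078, edgeR adjusted p 2.8e-08), with Gapdh, Pgk1, Pkm and Ldha between 0.49 and 0.61 on the log2 scale. The glucose transporter Slc2a1 stood at 118, 98.3 and 126 CPM on day 7 and at 191, 176 and 205 CPM on day 8 (log2 fold change 0.74, SE 0.10, edgeR adjusted p 9.7e-06), while the transporter Slc2a3 and the angiogenic factor Vegfa fell (-1.23 and -2.2). The glycolytic enzymes Pfkm and Pfkl and the regulator Pfkfb3 fell too (-0.63, -0.44 and -0.35). Of 43 nuclear-encoded subunits of oxidative phosphorylation 17 rose and 2 fell (median 0.166), which is about the size of the shift between scalings; library totals gave 28 rises, TPM gave 33, and leaving out both samples with high Ddx3y gave 11. Atp5g1, a subunit of ATP synthase, and Cycs, cytochrome c, had the largest rises (0.77 and 0.75). Of the 13 transcripts made in mitochondria, mt-Co1 fell (-0.64) and the other 12 were not called. The call ended in such a fit for mt-Co1 (TPM), Pfkl (TPM) and Pfkfb3 (library totals, TPM).

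Falls outnumbered rises among lipid genes under the oxysterol receptors LXR. Of 14 LXR targets and receptors 9 fell and none rose (median -0.852, and -1.38 with no filter on low counts or -1.39 without the most counted genes). Pltp, which transfers phospholipids to lipoproteins, stood at 313, 198 and 339 CPM on day 7 and at 35, 18.2 and 52.3 CPM on day 8 (log2 fold change -3.02, SE 0.31, edgeR adjusted p 2.3e-07). Apoe, the lipoprotein that carries cholesterol out of macrophages, stood at 3691, 1961 and 3973 CPM on day 7 and at 890.5, 388 and 1392 CPM on day 8 (log2 fold change -1.85, SE 0.41, edgeR adjusted p 0.0012). Abca1, the transporter that loads cholesterol onto apolipoproteins, stood at 454, 275 and 382 CPM on day 7 and at 173, 101 and 133 CPM on day 8 (log2 fold change -1.45, SE 0.22, edgeR adjusted p 2.5e-05). In these genes sample 67 was the lowest of its day, on day 7 and on day 8, and the days did not overlap. Apoc1 and Cd5l fell by 3.12 and 3.08 on the log2 scale (Apoc1 by 4.86 without sample 64 of day 8), and Abcg1, a second cholesterol transporter, had a log2 fold change of -0.23 and was not called. Ctsa overlaps Pltp on the opposite strand with 769% of its counts and fell by 0.63. The fatty acid carriers Fabp4 and Fabp5 and the receptor gene Pparg also fell, within a list of 16 PPAR gamma lipid genes with 7 falls and 3 rises. Fabp4 stood at 211, 133 and 195 CPM on day 7 and at 48.2, 25.2 and 61.2 CPM on day 8 (log2 fold change -2.01, SE 0.31, edgeR adjusted p 3.6e-05). Fabp5 and Pparg had log2 fold changes of -0.92 and -0.64, and Car4, described among the largest rises, is a member of the same list.

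Lipid synthesis genes were divided. Among 24 genes of cholesterol synthesis and uptake 8 rose and 4 fell, and the 4 falls became 2 without sample 67 of day 7 or of day 8 or without both samples with high Ddx3y, and 1 with library totals or TPM. Hsd17b7, an enzyme of cholesterol synthesis, stood at 9.02, 10.5 and 8.19 CPM on day 7 and at 17.4, 17.1 and 13.9 CPM on day 8 (log2 fold change 0.81, SE 0.12, edgeR adjusted p 2.4e-05), and Dhcr7 fell by 0.93. Among 16 genes of fatty acid synthesis and desaturation 5 rose and 5 fell. Fasn, fatty acid synthase, stood at 82.4, 100.4 and 78.3 CPM on day 7 and at 177, 239 and 120 CPM on day 8 (log2 fold change 1.04, SE 0.22, edgeR adjusted p 0.00074). Scd1, the desaturase that makes oleic acid, stood at 29.3, 35.9 and 33.9 CPM on day 7 and at 6.91, 9.92 and 5.79 CPM on day 8 (log2 fold change -2.12, SE 0.52, edgeR adjusted p 0.0026). The synthase and the elongase Elovl6 (1.15) thus rose while Scd1, Scd2 and Acss2 fell (-2.12, -0.99 and -1.42).

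Falls outnumbered rises among lysosomal genes. Of 35, 21 fell and 2 rose (median -0.487), with 7 rises under library totals and 8 with TPM. When 1 KO sample was left out, 14 to 25 fell. Ctsd, a lysosomal protease (ENSMUSG00000007891.16 at chr7:142375911-142388038, reverse strand of GRCm38), stood at 12708, 8872 and 13007 CPM on day 7 and at 4194, 3066 and 6219.9 CPM on day 8 (log2 fold change -1.36, SE 0.26, edgeR adjusted p 0.00034). Ctss, the cathepsin that trims the invariant chain in antigen-presenting cells, stood at 6445, 6021 and 7189.8 CPM on day 7 and at 3633, 2618 and 3548 CPM on day 8 (log2 fold change -1.0, SE 0.17, edgeR adjusted p 8.7e-05). In both genes the days did not overlap and sample 67 was the lowest of its day. Ctsb, Ctsh, Ctsk and Gpnmb fell by 0.94 to 1.0 on the log2 scale, and so did Tfeb, the transcription factor of lysosomal genes, by 0.56. Subunits of the proton pump were mostly not called, apart from a fall of Atp6v1a (-0.32). Fth1, the heavy chain of the iron store ferritin and 1 of the most counted genes, stood at 33863, 25611 and 33878 CPM on day 7 and at 15815, 11877 and 20653 CPM on day 8 (log2 fold change -0.95, SE 0.21, edgeR adjusted p 0.0012). Its list of 21 antioxidant and metallothionein genes held 5 falls and 4 rises, and Nqo1 rose furthest (1.13); without sample 68 of day 8 there were 8 falls, and library totals and TPM each gave 7 rises and 4 falls. Txn1, thioredoxin, fell by 0.50. Such fits ended the calls of Ctsb (67 of day 8) and Atp6v1a (64, 67 and 68 of day 7, 64 and 67 of day 8, library totals, TPM, replicate block).

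The letters CACGTG, an E-box that both MYC and TFEB bind and that reads the same on both strands, were found in 6 of 28 promoters (21.4%) of 25 ribosome biogenesis genes and in 10 of 34 promoters (29.4%) of 27 lysosome genes, against 7.15% of 32851 promoters. The same letters thus occurred in promoters of a list with more rises and of a list with more falls. Nop2 and Ctsd are shown as 1 member of each; the RefSeq sequences on GRCm38.p6 run to the start site from 150 bases before it for Nop2 (chr6:125131733-125131882, forward strand) and from 250 bases before it for Ctsd (chr7:142387828-142388077, reverse strand), 5′ to 3′, with CACGTG in capitals.
Nop2: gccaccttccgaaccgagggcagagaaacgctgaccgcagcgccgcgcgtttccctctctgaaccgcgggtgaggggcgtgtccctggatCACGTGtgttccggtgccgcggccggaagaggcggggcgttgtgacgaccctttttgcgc
Ctsd: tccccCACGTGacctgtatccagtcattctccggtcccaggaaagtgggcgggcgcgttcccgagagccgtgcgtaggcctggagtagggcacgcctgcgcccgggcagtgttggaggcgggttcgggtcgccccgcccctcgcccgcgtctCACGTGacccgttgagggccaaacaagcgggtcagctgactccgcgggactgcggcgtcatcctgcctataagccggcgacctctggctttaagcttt
The match begins 60 bases before the start site in Nop2, and 245 and 98 bases before it in Ctsd.

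Rises outnumbered falls among NF-kB genes but not among chemokine genes. Of 26 NF-kB cytokines and feedback genes 15 rose and 3 fell (median 0.712). When 1 KO sample was left out, 10 to 15 rose. Tnf stood at 13.1, 25.2 and 20.1 CPM on day 7 and at 109, 132 and 111 CPM on day 8 (log2 fold change 2.59, SE 0.23, edgeR adjusted p 3.1e-08). Gpr84, a receptor for medium-chain fatty acids, stood at 2.87, 11.5 and 6.56 CPM on day 7 and at 37.7, 33.6 and 30.4 CPM on day 8 (log2 fold change 2.28, SE 0.30, edgeR adjusted p 4.2e-06; 2.87 without sample 67 of day 7). Nfkbia and Nfkbie, inhibitors of NF-kB, rose by 0.83 and 1.46, while Cd14, the co-receptor for lipopolysaccharide, fell by 1.5. Il1b, Il6 and Il12a were not called (0.37, 1.14 and -0.01). Of 23 chemokines and chemokine receptors 9 rose, all of them ligands; Cxcl3, a neutrophil attractant, stood at 29.5, 13.4 and 17.5 CPM on day 7 and at 168, 111 and 266 CPM on day 8 (log2 fold change 3.17, SE 0.45, edgeR adjusted p 1.4e-05), and the CCR2 ligands Ccl2, Ccl7 and Ccl12 rose by 2.46, 2.89 and 3.94. Of the 9 falls, 6 were receptors, namely Cx3cr1, Ccrl2, Cxcr4, Cxcr3, Cxcr2 and Ccr2, the last with a log2 fold change of -0.93. Cxcr3 had one of -1.47, or -2.20 without sample 68 of day 8. Sample 68 was the highest of day 8 for Cxcl3 and Ccl12 and the lowest for Ccl17. Among these genes a call ended for Cxcr3 (67 and 68 of day 7, 64 and 67 of day 8, library totals), Cxcr2 (TPM) and Ccr2 (67 and 68 of day 7, 64 and 68 of day 8, library totals, TPM).

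Receptors for microbial products moved in both directions. Among 14 Toll-like receptor genes and their partners 4 rose and 6 fell. The surface receptors Tlr4 and Tlr2 and the adaptor Myd88 rose (1.3, 1.14 and 0.76), while the endosomal receptors Tlr7, Tlr8, Tlr9 and Tlr13 and their chaperone Unc93b1 fell (-0.70, -0.85, -1.22, -0.51 and -0.55). Tlr3, which is endosomal too, rose by 0.65, and Cd180, a surface protein, fell by 0.48. Tlr9, which senses unmethylated DNA, stood at 34.8, 35.2 and 31.7 CPM on day 7 and at 14.6, 17.5 and 11.6 CPM on day 8 (log2 fold change -1.22, SE 0.26, edgeR adjusted p 0.00085). Of 40 interferon-stimulated genes 20 rose and 1 fell (median 0.512). Usp18, a feedback inhibitor of interferon signalling, stood at 26.4, 31.2 and 29.6 CPM on day 7 and at 64.7, 60.8 and 53.2 CPM on day 8 (log2 fold change 1.04, SE 0.17, edgeR adjusted p 4.9e-05). Cxcl10 stood at 1.52, 4.71 and 2.36 CPM on day 7 and at 10.7, 11.5 and 7.39 CPM on day 8 (log2 fold change 1.79, SE 0.42, edgeR adjusted p 0.0017). In Cxcl10 sample 67 of day 7 lay above the other 2 samples of that day, and without it the log2 fold change was 2.37. The count of rising genes in this list was 11 without sample 64 of day 7 and 10 without sample 64 of day 8. The call ended in such a fit for Tlr13 (64 and 68 of day 7, 64 and 67 of day 8, library totals, TPM) and Cd180 (64 of day 7, 67 of day 8, TPM).

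The dendritic cell programme itself changed in part. Of 34 maturation genes 20 rose and 4 fell (median 0.526). The costimulatory genes Cd40 and Cd80 rose by 1.32 and 1.41 and the inhibitory ligands Pdcd1lg2 and Cd274 by 1.49 and 0.61. Cd86, Cd83 and the lymph node homing receptor Ccr7 were not called (0.04, -0.48 and 0.49). The count of rises was 12 without sample 64 of day 7 and 11 without sample 67 of day 8 (median 0.305), and that of falls 2 without sample 68 of day 7 or 64 of day 8, with library totals or with TPM. Of 14 MHC class II presentation genes 3 rose (H2-DMa, H2-DMb1 and March1) and Ctss fell, while the alpha and beta chains H2-Aa, H2-Ab1 and H2-Eb1 had log2 fold changes of -0.03, 0.19 and 0.02 and were not called. Of 16 MHC class I and peptide loading genes 3 rose and 2 fell, with 5 rises without sample 67 of day 7 or sample 68 of day 8, 7 with library totals and 8 with TPM. Calls that ended in 1 or more of these fits were those of Cd40 (64 of day 7, 67 of day 8), Cd274 (67 and 68 of day 7, 64 and 68 of day 8) and H2-DMb1 (64 of day 7, 64 and 67 of day 8).

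Among C-type lectins, which bind sugars on microbes and self proteins, 6 of 15 rose and 4 fell. Mgl2, a galactose-binding lectin of dendritic cells and macrophages, stood at 75.9, 104 and 73.7 CPM on day 7 and at 369, 578 and 271 CPM on day 8 (log2 fold change 2.26, SE 0.25, edgeR adjusted p 5.5e-07). Clec4n, which encodes Dectin-2, stood at 839, 1022 and 879.7 CPM on day 7 and at 2188, 1910.1 and 2084 CPM on day 8 (log2 fold change 1.17, SE 0.12, edgeR adjusted p 1.8e-07). Clec9a, a lectin of the cDC1 subset, fell by 1.26, and the 4 falls of the list were 2 without sample 67 of day 8, without both samples with high Ddx3y or with library totals, and 1 with TPM. Of 14 regulators of the dendritic cell lineage 5 rose and 5 fell. Zbtb46 and Irf4, linked to conventional dendritic cells, rose by 1.21 (0.35 without sample 67 of day 8) and 0.93. Irf8, Batf3 and Bcl6 fell by 1.1, 0.50 and 2.0. The 5 rises of that list were 2 without sample 64 of day 7 or sample 67 of day 8, and 3 without sample 68 of day 7; Id2 and Relb, with log2 fold changes of 0.25 and 0.57, lost their calls when both samples with high Ddx3y were left out, and Id2 also without sample 64 of day 7 alone or when only the 6 samples were fitted. Of 28 podosome, integrin and adhesion genes 9 fell and 4 rose, against 6 and 6 with library totals and 5 and 8 with TPM, so the more frequent direction was not the same with TPM. Itga6 stood at 216, 153 and 210.1 CPM on day 7 and at 63.6, 53.4 and 62.8 CPM on day 8 (log2 fold change -1.69, SE 0.18, edgeR adjusted p 3.6e-07). Itgb3, with Itgav a chain of the vitronectin receptor, stood at 115, 125 and 136 CPM on day 7 and at 51.2, 44.1 and 62.2 CPM on day 8 (log2 fold change -1.25, SE 0.26, edgeR adjusted p 0.00061). Icam1 rose by 1.14. Complement genes held 3 rises and 1 fall among 11, with Ptx3 at 1.52 on the log2 scale, and 4 falls without sample 68 of day 8. Such fits ended the calls of Clec9a (64 of day 7, 67 of day 8), Zbtb46 (64 and 68 of day 7, 67 of day 8, TPM, replicate block), Irf4 (67 of day 8), Batf3 (64 and 68 of day 7, 64 and 68 of day 8, library totals, TPM) and Itgav (64 of day 7, TPM).

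Among genes of the dividing cell, few of the mitosis list were called. Of 32 mitosis genes none rose and Cenpa fell (-0.66), with a median of 0.212. That median has no fixed direction, as it was 0.0319, 0.596 and 0.123 without samples 64, 67 and 68 of day 7 and -0.248 and 0.514 without samples 67 and 68 of day 8. The mean of the list was 3.50, 4.50 and 3.75 log2 CPM on day 7 and 4.03, 4.82 and 3.23 log2 CPM on day 8. The days overlapped, and sample 67 was the highest on both days. Mki67, the usual marker of cycling cells, stood at 85.8, 159.5 and 84 CPM on day 7 and at 130.1, 199.9 and 67.1 CPM on day 8, and Top2a at 55.2, 128 and 62.2 CPM on day 7 and at 103, 177 and 47.2 CPM on day 8. Of 40 DNA replication genes 9 rose and 1 fell, at the background share of 21.1%; the number of rises was 3, 4, 5 and 1 without sample 64 of day 7, 68 of day 7, 64 of day 8 and 67 of day 8, and 16 without sample 68 of day 8. Orc1, a subunit of the origin recognition complex, stood at 1.32, 0.986 and 0.986 CPM on day 7 and at 2.9, 4.93 and 2.66 CPM on day 8 (log2 fold change 1.67, SE 0.31, edgeR adjusted p 0.00018). Of 32 genes of double-strand break repair 9 rose and 3 fell, with 5 rises without sample 67 of day 8. Exo1 and Xrcc2 of that list rose by 1.34 and 0.66, and Exo1 and Orc6 (0.60) lost their calls without sample 67 of day 8 and Xrcc2 without sample 64 of day 7. The falls of the repair list were Rad51b (-1.21, or -0.39 with TPM), Xrcc5 (-1.2) and Chek2 (-0.195). Xrcc5 kept its call in every fit. Rad51b lost its call without both samples with high Ddx3y, and Chek2 without sample 64 of day 7, with library totals or with TPM. Vps35 overlaps Orc6 on the opposite strand with 2740% of its counts and rose as well (log2 fold change 0.40).

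Targets of the tumour suppressor p53 rose more often than the genes tested, in 16 of 28, with 4 falls (median 0.509). Tnfrsf10b, a death receptor, stood at 4.19, 4.8 and 4.67 CPM on day 7 and at 16, 18.6 and 17.7 CPM on day 8 (log2 fold change 1.94, SE 0.16, edgeR adjusted p 1.7e-08). Cdkn1a, the inhibitor p21 that halts the cell cycle, stood at 283, 249 and 299.6 CPM on day 7 and at 738, 776 and 838 CPM on day 8 (log2 fold change 1.5, SE 0.13, edgeR adjusted p 2.1e-08). Mdm2, which degrades p53, stood at 186, 138 and 155 CPM on day 7 and at 241, 207 and 307 CPM on day 8 (log2 fold change 0.65, SE 0.18, edgeR adjusted p 0.0067). For each of the 3 genes every day 8 value lay above every day 7 value. Eda2r, Bax, Fas, Aen and Ccng1 rose as well (1.9, 0.56, 0.63, 1.17 and 1.03). Sesn1, Plxnb2, Gdf15 and Xpc fell, and these 4 falls were 2 without sample 67 of day 7 or of day 8, with library totals or with TPM. In WT the same list held 15 rises and 3 falls (median 0.523). Among these genes a call ended for Gdf15 (67 and 68 of day 7, 64 and 67 of day 8, library totals, TPM) and Xpc (67 of day 7, 67 of day 8, library totals, TPM).

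The change was then set beside that of WT, which shares no sample with it. In WT 6315 genes (43.4%) were called, 3120 (21.5%) higher and 3195 (22%) lower on day 8. Both lists held 4845 genes, 79.3% of the KO calls and 76.7% of the WT calls, and 4840 of them changed in the same direction. Across the 14535 genes, which are not independent of each other, the log2 fold changes had a correlation of 0.835, given as a description. All 20 genes of the largest changes were called in the same direction in WT, with log2 fold changes of 3.80 to 7.49 for the rises and -3.98 to -2.75 for the falls. Cish and Socs1 changed by 3.83 and 3.39 in WT, Pltp by -2.74 and Ctsd by -1.24. The mitosis list held 16 rises and 1 fall in WT (median 0.904) against none and 1 in KO, and DNA replication genes held 23 rises against 9, but no gene of either list was called in the test of the difference between KO and WT. The WT and KO counts of these lists are therefore not shown to differ.

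**Figure D3:**
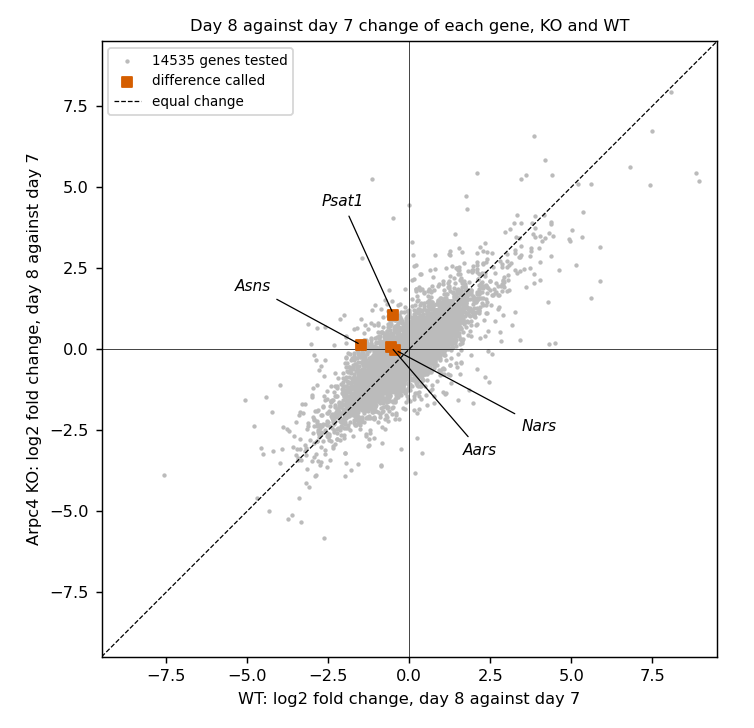
Log2 fold change of day 8 against day 7 in KO (vertical) and WT (horizontal) for the 14535 genes tested (grey), with the dashed line of equal change. The 4 genes whose change differed between genotypes (squares) lie above the line, Asns with log2 fold changes of -1.48 in WT and 0.12 in KO.

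The difference between the KO and the WT change passed an edgeR adjusted p of 0.05 for 4 of 14535 genes (0.0275%), and 685 genes had an unadjusted p under 0.05. All 4 take part in making amino acids or in charging tRNA. Asns, asparagine synthetase (ENSMUSG00000029752.12 at chr6:7675169-7693254, reverse strand of GRCm38), stood at 11.2, 14.5 and 12.7 CPM on day 7 and at 12.7, 15.6 and 13.5 CPM on day 8 in KO. In WT it stood at 33.2, 38.9 and 47.4 CPM on day 7 and at 15.4, 13.8 and 13.6 CPM on day 8 (mice 63, 65 and 66). The KO values of both days lay with the WT values of day 8, and the WT values of day 7 stood apart. Psat1, an enzyme of serine synthesis, stood at 15.4, 15.1 and 17.3 CPM on day 7 and at 31.1, 42.8 and 26 CPM on day 8 in KO and at 37.8, 44.1 and 53.8 and 36.8, 26.6 and 33.3 CPM on these days in WT. Aars, the alanyl-tRNA synthetase, stood at 111, 113 and 112 CPM on day 7 and at 109.5, 119 and 125 CPM on day 8 in KO and at 164, 182 and 196 and 125, 118 and 122 CPM in WT. Nars, the asparaginyl-tRNA synthetase, stood at 158, 162 and 161 CPM on day 7 and at 159.7, 153 and 163 CPM on day 8 in KO and at 202, 215 and 219.9 and 154, 158 and 155 CPM in WT. For Aars and Nars as for Asns, KO changed little between the days and WT fell. The KO minus WT differences of the log2 changes were 1.60 for Asns (SE 0.22, edgeR adjusted p 0.0067), 1.55 for Psat1 (SE 0.26, 0.033), 0.65 for Aars (SE 0.10, 0.030) and 0.42 for Nars (SE 0.074, 0.045). With the mouse number as a replicate block Asns and 1 gene other than these 4 passed, and Psat1, Aars and Nars did not. Leaving out 1 KO sample gave 1 gene, Asns (67 or 68 of day 7, 67 of day 8), 2 with only Asns of the 4 (64 of day 7), 3 with Asns and Aars of the 4 (64 of day 8), or 4 with Asns and Psat1 of the 4 (68 of day 8). Leaving out 1 WT sample gave Asns alone (65 or 66 of day 7, 63 or 66 of day 8), 2 genes with only Asns of the 4 (65 of day 8), or the same 4 genes (63 of day 7). Asns passed in all of these fits.

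**Figure D4:**
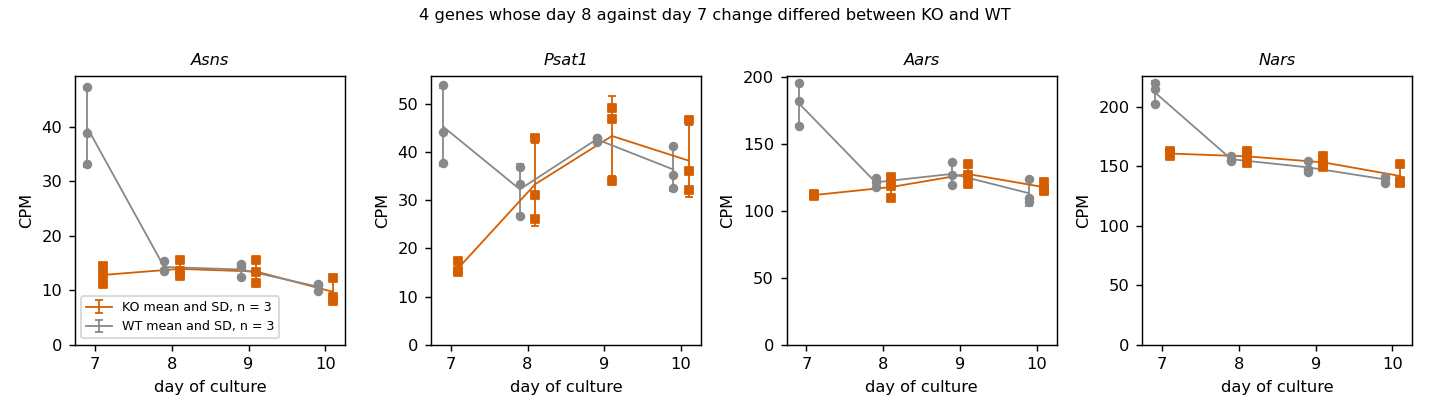
CPM of Asns, Psat1, Aars and Nars in each sample on days 7 to 10, in KO (squares) and WT (circles), with means and SD (n = 3) joined by lines. On day 7 the WT samples lie above the KO samples in all 4 genes, and on day 8 the genotypes overlap.

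The lists to which these genes belong were read as a whole. Of 29 ATF4 targets and amino acid synthesis genes, which are switched on when amino acids run short, 7 rose and 1 fell in KO (median 0.299), and 1 rose and 8 fell in WT (median -0.327). The KO rises numbered 11 with library totals and 14 with TPM, and the KO median was 0.149 without both samples with high Ddx3y. Slc7a5, a transporter of large neutral amino acids, stood at 9.42, 22 and 12.5 CPM on day 7 and at 51.6, 89.5 and 37.6 CPM on day 8 in KO (log2 fold change 2.03, SE 0.34, edgeR adjusted p 6.5e-05). Phgdh, the entry enzyme of serine synthesis, stood at 3.47, 8.02 and 4.93 CPM on day 7 and at 19.1, 22.3 and 9.85 CPM on day 8 (log2 fold change 1.65, SE 0.37, edgeR adjusted p 0.0013). Atf4 itself, Ddit3 and Chac1 were not called (0.12, -0.01 and -0.44). Of 21 aminoacyl-tRNA synthetases 12 rose and 2 fell in KO (no falls with library totals or TPM), against 5 and 8 in WT. Iars and Farsa rose by 0.75 and 0.62 in KO and had log2 fold changes of 0.40 and 0.69 in WT. Apart from the 4 genes above, no gene of these lists was called in the test of the difference.

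Between day 9 and day 8, a comparison that shares the day 8 samples, 338 of 14535 genes (2.33%) were called in KO. None of the 20 genes of the largest changes was among them. Ccn3 had means of 3.79 ± 1.08, 158 ± 15.2, 168 ± 17.4 and 161 ± 13.4 CPM on days 7, 8, 9 and 10 (SD, n = 3 each). Cish had means of 20.2 ± 4.16, 238 ± 37.4, 225 ± 37.8 and 204 ± 14.8 CPM. Id3 had means of 0.713 ± 0.203, 12.5 ± 1.56, 3.55 ± 3.06 and 0.883 ± 1.04 CPM. The day 10 means of Ccn3 and Cish lay nearer to their day 8 than to their day 7 means, and that of Id3 lay nearer to day 7, although its log2 change of -1.82 between days 9 and 8 was not called. Best1, among the falls, had means of 42 ± 1.31, 3.66 ± 0.27, 5.37 ± 1.15 and 10.0 ± 3.95 CPM. On day 10 the means of all 10 falls lay between their day 8 and day 7 means. The ribosome biogenesis list had means of 5.04, 5.95, 5.83 and 5.51 log2 CPM on the 4 days, and the LXR targets 6.70, 5.52, 5.32 and 5.46 log2 CPM. Mitosis genes stood at 3.92, 4.03, 5.24 and 5.54 log2 CPM, with a spread of samples that overlapped between neighbouring days.

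**Figure D5:**
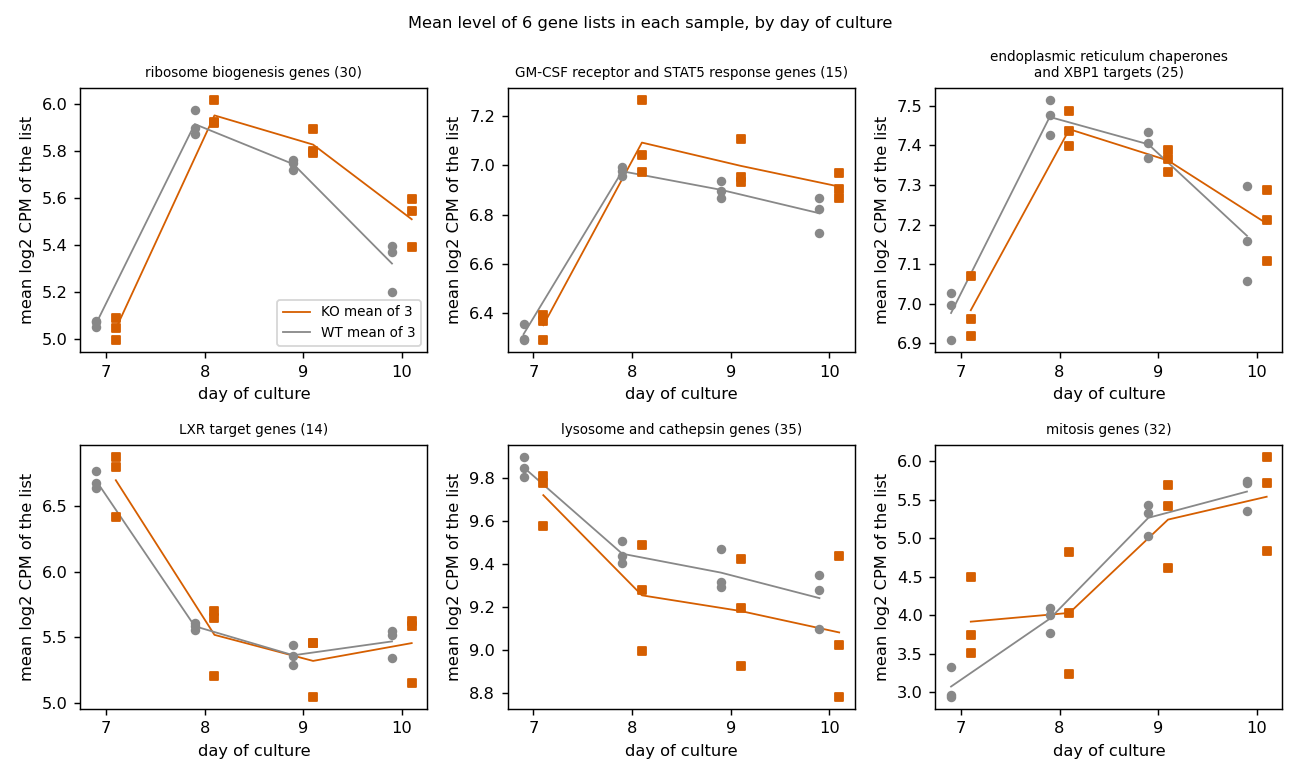
Mean log2 CPM of 6 gene lists in each sample on days 7 to 10, in KO (squares) and WT (circles), with lines through the means of 3 samples. The first 3 lists step up and the LXR and lysosome lists step down between days 7 and 8 in both genotypes, while the KO mitosis values of days 7 and 8 overlap.

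Markers of the cell types a marrow culture can hold were read in the 6 samples, as the summed level of each list, tested or not, and as calls of the tested members; their part in the results above was not tested. The 10 dendritic cell markers summed to 2685 to 3299 CPM on day 7 and 2647 to 4615 CPM on day 8, with 1 rise (Zbtb46) and 1 fall (Clec9a). The 14 macrophage markers summed to 5632 to 8645 and 3669 to 6144 CPM, with Apoe, which is also an LXR target, as the largest part (32.8%) and Timd4 at or under 3 counts. Of the 12 tested, 3 fell, Apoe and Mertk among them, and Mrc1 rose. The 15 neutrophil markers summed to 4139 to 8030 and 3969 to 5047 CPM, and 6 fell while none rose: Ly6g, Camp, Ngp, Cxcr2, Retnlg and Csf3r (-1.96, -1.12, -0.80, -1.17, -2.42 and -1.39 on the log2 scale). The 8 monocyte markers summed to 1374 to 3361 and 1228 to 2375 CPM, with falls of Ccr2, F13a1 and Plac8 and a rise of Vcan. Without sample 67 of day 7 the log2 fold changes of Plac8 and Vcan were -0.42 and 3.25, against -1.14 and 2.51. The neutrophil and monocyte sums were highest in sample 67 on each day. The sums of these 4 lists overlapped between the days although members fell. The call ended in such a fit for Zbtb46 (64 and 68 of day 7, 67 of day 8, TPM, replicate block), Clec9a (64 of day 7, 67 of day 8), Mertk (64 and 68 of day 7, 64 and 67 of day 8, library totals, TPM, replicate block), Ngp (67 of day 7, 64 of day 8, library totals, TPM), Cxcr2 (TPM), Ccr2 (67 and 68 of day 7, 64 and 68 of day 8, library totals, TPM), F13a1 (67 of day 7, TPM) and Plac8 (67 and 68 of day 7, 64 and 68 of day 8, library totals, TPM, replicate block).

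Eosinophil markers (7 genes) summed to 99.3 to 223 CPM on day 7 and 43.5 to 68.6 CPM on day 8, and 4 fell (Prg2, Epx, Ear1 and Siglecf), with Epx at -2.07 or, without sample 67 of day 7, at -1.45. The 8 osteoclast markers summed to 372 to 528 and 281 to 356 CPM, with falls of Acp5 and Ctsk among 6 tested and Calcr at 0 in all 6 samples. Both sums were lower on day 8 without overlap. Mast cell and basophil markers stood at 92.9 to 271 and 145 to 262 CPM, with Mcpt4 and Mcpt2 at 0, a rise of Kit and a fall of Tpsb2. The 6 megakaryocyte markers summed to 252 to 464 and 306 to 863 CPM, mostly from Pf4, while Itga2b, Gp1ba, Gp9 and Gp5 fell without overlap (-0.57, -0.82, -1.06 and -0.64). The sums of T cell, B cell, plasmacytoid dendritic cell and stromal markers overlapped between the days, with 2 falls (Ighm and Tcf4) and 2 rises (Pacsin1 and Lepr) among them. Pacsin1 stood at 1.49 on the log2 scale, or 0.74 without sample 67 of day 8. The 9 erythroid markers summed to 4.43 to 5.91 CPM on day 7 and 11 to 35.3 CPM on day 8, mostly from Car2, which rose (2.33, or 1.66 without sample 67 of day 8), while Hbb-bs, Alas2 and Car1 were at or under 3 counts. NK cell markers summed to at most 3.47 CPM. Among them Klrb1c, at 0.439 CPM or less, fell (-1.91, -2.74 without sample 67 of day 8 and -0.23 with TPM). The neutrophil and monocyte values of sample 67 stand beside its high mitosis values on day 7 and its low values of Apoe, Cd5l and Cxcl14. Calls that ended in 1 or more of these fits were those of Ear1 (67 of day 7), Tpsb2 (67 and 68 of day 7, 68 of day 8), Itga2b (TPM), Gp1ba (68 of day 7, 64 and 67 of day 8, TPM), Gp9 (68 of day 7, 67 of day 8), Gp5 (67 and 68 of day 7, 64 and 67 of day 8, library totals, TPM), Pacsin1 (64 and 67 of day 7, 67 of day 8, TPM) and Klrb1c (64 of day 7, 64 of day 8).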

How the data were processed

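Per the labels' protocols, RNA was sequenced as stranded paired-end libraries made with 2 kits, without saying which library used which. The authors deposited raw counts per gene for 55487 genes and a TPM table (values per transcript length that sum to 1 fixed total); the submitters' processing notes name STAR 2.6.1 and mm10, and the counter, annotation and strand setting are not given in the sources used here. Of the deposited identifiers 55094 match GENCODE M21 on GRCm38, whose positions are used, counted from 1.

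Counts of all 24 samples were fitted with edgeR 4.0.16 in R 4.3.3: filterByExpr over 8 groups (14535 of 28655 genes with a count), TMM factors, a quasi-likelihood model of the 8 group means with 16 residual degrees of freedom, 2-sided tests and Benjamini-Hochberg adjustment over all genes tested. Standard errors come from the log2 fold change and its F statistic. The steps were tested on simulated data in which a far smaller share of genes changed than the 42% called here. That simulation cannot show how well the scaling works in these data. The standard errors and p-values include the spread between samples of a group. The sampling noise with which samples were compared covers counting error only, and reads carry no molecular identifiers.

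The genes named by rule were Arpc4, the 10 largest changes per direction (adjusted p under 0.05, average log2 CPM above 1, no overlap between days, no predicted-gene symbol), the 2 largest of each list with at least 4 calls in 1 direction, and the 5 smallest p of the KO minus WT difference, where 4 passed. Within a list the 2 were taken only from members called in its more frequent direction, or from the rises in a tie. The limits on CPM and overlap applied to them as well. Members and lists were chosen with earlier results of these data known. The mouse numbers recur in the labels on every day, and deviations of same-numbered KO samples from their group means correlated at 0.113, 0.65 and 0.299 over 10665 genes, but sample 64 of day 7 correlated more with sample 68 of day 8 (0.429), and sex-linked transcripts went against numbers 64 and 68. Samples were therefore not paired, and a block for the number was an alternative. Promoter sequences are RefSeq's. Some genes that the rule names are not reported here, and counts over lists include them.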

Additional observations from a re-analysis of the deposited data

Results flagged for a closer look

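For 4 genes the test of KO minus WT found a different day 8 against day 7 change in the genotypes. In log2 units KO minus WT the differences were 1.60 for Asns, 1.55 for Psat1, 0.646 for Aars and 0.424 for Nars. The edgeR call was lost in 1 of 24 alternative fits for Asns, 14 for Psat1, 15 for Aars and 17 for Nars. The direction held in all 24 fits for each gene. No explanation was weighed here.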

How the results depend on the processing

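The 6110 calls became 4526 when only the 6 compared samples were fitted and 6693 with limma-trend on TPM, and 4980 to 6322 when 1 KO sample was left out. With the mouse number as a replicate block 6044 genes were called for the day and 2 for the KO minus WT difference. Without both samples with high Ddx3y, an alternative chosen after seeing the data, 5511 were called. Limma-trend on TPM gave 5065 higher and 1628 lower genes, 491 and 265 of them by at least 2-fold. A filter on a mean of 50 counts gave 333 higher and 529 lower by at least 2-fold. The KO minus WT difference passed for 2 genes with library totals, 20 with the DESeq2 Wald test, 0 with TPM (555 at an unadjusted p under 0.05), 10 with no filter, 8 with the filter of 50 counts, 1 with only the 12 samples of days 7 and 8, 9 with Xist as a covariate, and 1 to 4 with 1 KO or WT sample left out (the WT samples were added after seeing the data). Of 78 named genes called for the day, 72 kept their call in every alternative that tested them (18, or 17 for Fth1 and Ctsd, which are among the most counted genes that 1 alternative leaves out); the others were Orc6, Exo1, Xrcc2, Rps14, Relb and Id2. The change of Nars in KO reversed with TPM, from -0.021 (not called) to 0.206 (limma adjusted p 0.0358). Of 666 recomputed list medians 589 moved by less than the spread between samples, and library totals and TPM moved 19 and 22 of 37. The medians of the adhesion, antioxidant and ribosomal protein lists changed sign under both scalings and that of the fatty acid list under TPM. The causes were not tested. Low counts limit Cyp4a12a, Dmpk and Epha2, with at most 7 counts in each day 7 sample.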
